A study of Drosophila melanogaster with 2 samples.

Results

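Regions deep inside long autosomal genes were accessible stretches of chromatin whose summit, the base with the most reads, lay inside a protein-coding gene of at least 50 kb on 2L, 2R, 3L or 3R. The summit also had to be more than 2000 bp from both ends of every annotated gene. Of the 26571 regions in the peak list, 2754 (10.4%) met this rule, which was 12.1% of the 22832 regions on the 4 arms. They are called deep regions here. Their coordinates are those of the dm6 build, and genes are those of the RefSeq Release 6 annotation, which was used as gene starts and ends without strand, transcripts or exons. A deep region can therefore lie at the start of a shorter transcript of its host gene, and whether it is in an exon, an intron or a UTR was not analysed here.

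The data were ATAC-seq, in which a transposase cuts exposed DNA and tags it for sequencing, from ML-DmD17-c3 (D17) cells, a Drosophila melanogaster line established from larval haltere imaginal discs. There was 1 group of 2 libraries, for which the labels give no genotype change, treatment or time, and nothing says that they came from separate cultures. The authors deposited 1 peak list for the 2 libraries, with no value per library, so no spread between replicates is known and no difference below was tested. Of 10 marker genes of the wing and haltere disc, all had a region inside the gene or within 500 bp of it, and 8 had one with a fold of 3 or more. All 4 neuron markers and all 4 hemocyte markers had a region too, but 1 of each had one with a fold of 3 or more. The matching shares over all genes are not given here. The markers also differed in length, from 3.61 kb (NimC1) to 132 kb (hth), so these counts do not establish the cell type.

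Accessible chromatin is DNA that is not covered by a stable nucleosome, and it is found at promoters and at enhancers, short stretches bound by transcription factors that raise transcription of a gene from a distance. In Drosophila, genes with long introns are often regulators of development or genes of the nervous system, and many of their enhancers lie within their own introns. The same DNA can be open in one cell type and closed in another, so the set of open regions inside a long gene differs between tissues.

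The 2754 deep regions were spread over nearly all long autosomal genes. Of 237 such genes, with a median length of 74.2 kb (50.3 to 1966 kb), 231 held at least 1 when each region was counted for the shortest long gene around it. Elk, a potassium channel gene, and beat-Ib, an immunoglobulin family gene, held none, with 28.1 and 26.5 kb of sequence in which a deep region could lie. A count of 0 in so few bases has a 95% Poisson interval that reaches 13.1 and 13.9 per 100 kb. Lar, a receptor tyrosine phosphatase gene, sif, a Rac exchange factor gene, CG32373 and Glut4EF held 5, 11, 10 and 19 deep regions that lay inside a shorter long gene as well. The arm 3R had 806 deep regions, 3L 771, 2R 614 and 2L 563.

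A long gene held a median of 9 deep regions (quartiles 5 and 16). Counts were uneven, and the 29 genes with 20 or more held 951 deep regions, or 34.5% of them, while 7 genes had exactly 1. Among the 7 was Antp, which held 12 when each region was counted for every long gene around it. Bases where a deep region could lie, that is inside a long gene and over 2000 bp from every gene end, are called eligible sequence. For rho and for densities per gene, a region was counted for every long gene around it. Over the 237 genes the number of deep regions had a Spearman rho of 0.44 with the amount of eligible sequence. Without the 24 genes near a centromere it was 0.39 over 213 genes. Genes share the libraries and differ in the share of sequence to which reads can be mapped, so both are descriptions.

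**Figure D1:**
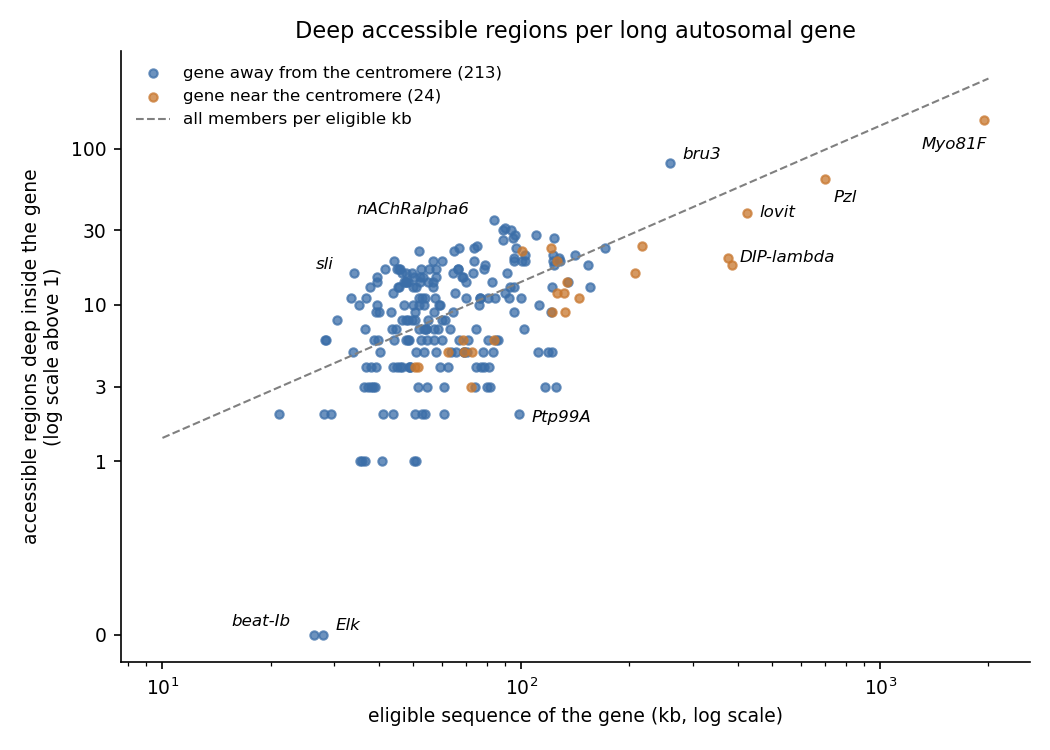
Number of deep regions (log axis above 1) against the eligible sequence in kb (log axis) for each of the 237 long genes, with 1 point a gene. A region is counted for every long gene around it. The dashed line is the density of all deep regions together, 14.1 per 100 kb. bru3 with 81 lies above the line, and Myo81F with 153, Pzl with 64 and lovit with 39, all near a centromere, lie below it.

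The genes with the most deep regions were of several kinds. Myo81F, a myosin gene of 1966 kb in the pericentric part of 3R, had 153, the most of any gene, at 7.89 per 100 kb of eligible sequence. bru3, a CELF family RNA-binding protein gene, had 81 at 31.2 per 100 kb. Pzl, a Piezo-like channel gene, had 64 and lovit, a vesicular transporter gene, had 39, at 9.13 and 9.20 per 100 kb. nAChRalpha6, a nicotinic acetylcholine receptor subunit gene, had 35 at 41.6 per 100 kb. Ten-m, which encodes the cell adhesion protein Tenascin major, had 31, and Snoo, a Smad co-repressor gene, and olf413 had 30 each. Sema1a, a semaphorin gene, and Svil, a gene for the actin-binding protein supervillin, had 28 each.

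Per base, the order was another. Among genes with at least 5 deep regions, sli, the gene of the guidance ligand Slit, had the highest density, with 16 deep regions at 46.9 per 100 kb. Fife, which encodes a presynaptic scaffold protein, followed with 19 at 42.9, Mmp2, a matrix metalloproteinase gene, with 22 at 42.4, nAChRalpha6 at 41.6 and twi, whose product is the bHLH factor Twist, with 17 at 40.7. nAChRalpha5, the RNA-binding protein gene Syp, the GATA cofactor gene ush, CG46301 and Samuel had 37.8, 37.8, 37.2, 37.1 and 35.3 per 100 kb. The median over the 237 genes was 13.5 (quartiles 7.87 and 22.8). Of these 10 genes, sli, Fife, nAChRalpha6, twi and nAChRalpha5 had no strongly accessible region among their deep regions, while Samuel and ush had 5 each.

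The strength of a region is given here as the authors' fold enrichment, the read pileup at the summit over the local background. Deep regions had a median fold of 1.90 (quartiles 1.70 and 2.28, range 1.36 to 12.9), and the median of the whole list was also 1.90. The median pileup was 93 reads (62 to 852) against 101 in the whole list, and the median width was 437 bp (197 to 4279 bp) against 497 bp. The local background sat at its lowest value, 44.4 reads, in 60.9% of deep regions and in 39.8% of all regions, so that a given fold rested on fewer reads here than in much of the list.

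A fold of 3 or more, called strong below, was reached by 291 deep regions, or 10.6% (exact binomial 95% interval 9.44 to 11.8%). It was reached by 9.98% of all regions in the list and by 9.33% (8.95 to 9.71%) of those on the 4 arms. These shares are close to each other. Regions with a summit within 500 bp of an autosomal gene end were strong in 14.6% of 5449 (13.6 to 15.5%). Regions inside shorter autosomal protein-coding genes, at the same distance of over 2000 bp from every gene end, were strong in 8.06% of 4665 (7.29 to 8.88%). In the long genes themselves, regions within 2000 bp of a gene end were strong in 11.6% of 688 (9.33 to 14.3%), an interval that overlaps that of the deep regions. These intervals take regions as independent, cover counting error only and are not tests. The threshold fell in a continuous range, with the weakest strong deep region at 3.0005 and the next at 2.9986, and the counting interval of 281 deep regions included 3, while 211 strong ones lay wholly above it.

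**Figure D2:**
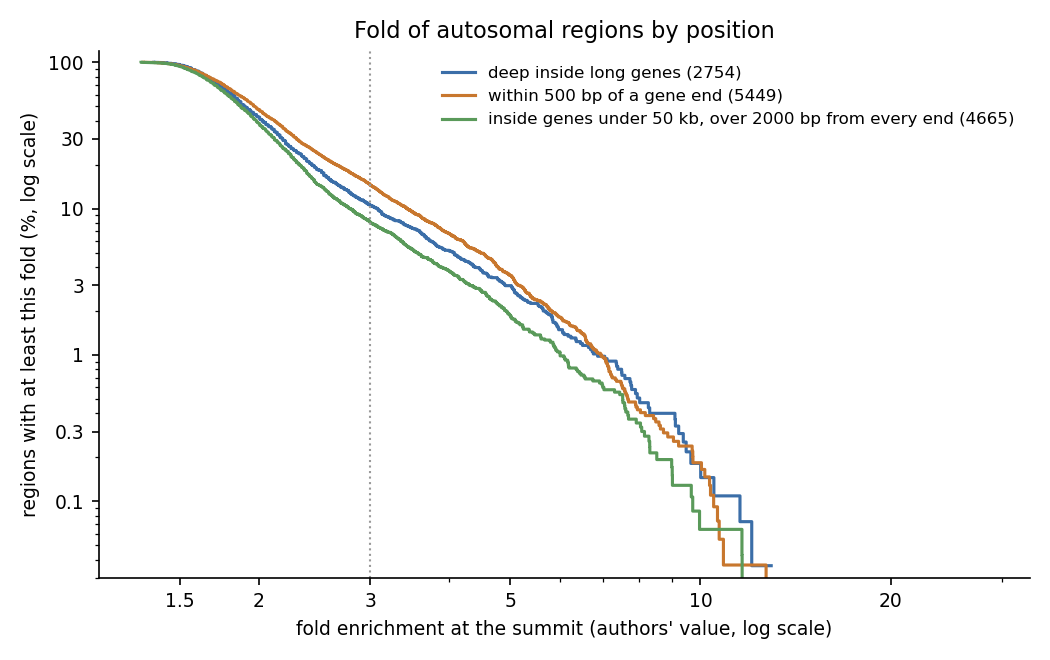
Share of regions (%, log axis) with at least the fold on the x axis (log axis), for deep regions, autosomal regions within 500 bp of a gene end, and regions inside genes under 50 kb and over 2000 bp from every end. At a fold of 3, marked by the dotted line, the shares are 10.6, 14.6 and 8.06%.

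The deep region with the highest fold lay inside CG42238, at 2L 21041982 to 21042671, with a pileup of 586 reads and a fold of 12.9 (95% Poisson interval 11.9 to 14.0). The next was inside mam, whose product Mastermind is a co-activator of Notch target genes, at 2R 14000628 to 14001179, with 595 reads and a fold of 12.1 (11.1 to 13.1). The intervals of these first 2 overlap. The fold was 11.6 (10.8 to 12.4) at 2L 9176083 to 9176911 in tai, which encodes a co-activator of the ecdysone receptor, where 851 reads stood over a local background of 72.8. At 3R 10614236 to 10614962 in hth, a homeodomain cofactor gene of the Hox proteins, 518 reads gave a fold of 10.5 (9.62 to 11.4). At 3L 14476645 to 14477301 in bbg, a PDZ domain protein gene, 453 reads gave a fold of 10.01 (9.11 to 10.97).

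The hosts of the next deep regions in this order were of several kinds. The fold was 9.66 in klg, an immunoglobulin family adhesion gene (3R 22937515 to 22937972), and 9.39 in sbb, a transcriptional co-repressor gene (2R 18329686 to 18330815). The ETS factor gene Eip74EF had 2 of the 20 strongest, at 9.49 (3L 17590363 to 17591163) and 7.59 (3L 17570027 to 17570522). Myo81F had 3 of them, at 9.24 (3R 2270219 to 2271158), 9.13 (3R 1684332 to 1684697) and 8.27 (3R 2448501 to 2449675). The nuclear receptor gene ftz-f1 had 2, at 9.11 (3L 18758996 to 18759661) and 8.31 (3L 18765736 to 18766168). The rest of the 20 were in mub, a KH domain RNA-binding protein gene (8.01), kuz, the gene of an ADAM protease that cleaves Notch (7.94), l(2)41Ab (7.89), bru2, of the CELF family (7.78), rl, the ERK MAP kinase gene (7.76), and pnt, an ETS factor gene of the EGF receptor pathway (7.73). The 95% intervals of neighbours in this order overlapped throughout. Of the 20 regions, 5 lay near a centromere by the limits given below, namely those in Myo81F, l(2)41Ab and rl.

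The hosts of strong deep regions were sorted by lists of gene function, which were drawn up with earlier results of these data known. The order of the lists is thus a description. The intervals of the shares take each region as independent. They leave out the spread between the genes of a list and are not tests. Genes of the ecdysone response, the steroid hormone pathway that times moulting and metamorphosis, had the highest share. The 7 long genes of that list held 103 deep regions, of which 33 (32.0%, interval 23.2 to 42.0%) were strong, with a median fold of 2.35 against 1.90 for all deep regions. Among the lists with more than 1 long gene, transcription factors and cofactors of patterning and cell fate came next. They had 56 strong among 225 deep regions in 17 genes (24.9%, 19.4 to 31.1%) and a median fold of 2.18. That list was not complete, since twi (0 of 17 deep regions strong), chinmo (5 of 8) and sbb (7 of 15) were on no list. Antp entered with 1 deep region, since the others inside it were counted for the shorter CG46458, which had 1 strong. The only long gene of the hemocyte list was ush, which is in the patterning list too. Of its 17 deep regions, 5 were strong (29.4%, 10.3 to 56.0%), a share above that of the patterning list.

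The lowest shares at a fold of 3 were in channel, adhesion and cytoskeleton genes. The 9 long genes of ion channels and transmitter receptors held 115 deep regions with 2 strong ones (1.74%, 0.211 to 6.14%), 1 in Snap25, a vesicle fusion protein gene placed on that list, and 1 in nAChRalpha4. Both of these lay near a centromere by the limits given below. Genes of immunoglobulin, guidance and adhesion proteins had 12 strong among 267 in 24 genes (4.49%, 2.34 to 7.72%). Cytoskeleton and muscle genes had 7 strong among 139 in 11 genes (5.04%, 2.05 to 10.1%), 1 of them in nmo, a protein kinase gene placed on that list. At a fold of 2 or more, reached by 42.4% of all deep regions, adhesion genes were lowest with 29.96% (24.5 to 35.8%). The share was 38.3% (29.4 to 47.8%) in channel genes and 37.4% (29.4 to 46.01%) in cytoskeleton genes. At a fold of 3, genes of RNA-binding proteins (22 of 237, 9.28%) and of growth and signalling pathways (12 of 93, 12.9%) were nearer the 10.6% of all deep regions. Genes in none of the lists had 147 strong among 1575 (9.33%).

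The density of deep regions followed the order of the strong share only in part. Among the lists with more than 1 long gene, ecdysone and patterning genes were highest in both. Cytoskeleton and muscle genes came next in density and RNA-binding protein genes last, which was not their order by strong share. ush, the only long gene of the hemocyte list, had 37.2 per 100 kb. The median density over the genes of a list was 24.7 per 100 kb for ecdysone genes and 19.9 for patterning genes, beside 13.5 over all long genes. It was 19.2 for cytoskeleton and muscle genes, 14.7 for growth genes, 12.5 for adhesion genes, 11.09 for channel genes and 11.05 for RNA-binding protein genes. The local background moved with the first list as well, with a median of 54.3 reads in ecdysone genes, 45.7 in patterning genes, and 44.4 to 44.96 in the lists from RNA-binding to cytoskeleton; its part in the shares was not tested. Leaving out each gene of a list in turn, the ecdysone share ran from 28.1% (without Eip74EF) to 34.7% (without Eip93F), and that of patterning genes from 23.2 to 26.2%. The channel share ran from 0.917% (without nAChRalpha4) to 2.50%, the adhesion share from 3.83 to 4.92% and the cytoskeleton share from 3.25% (without Msp300) to 5.74%.

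**Figure D3:**
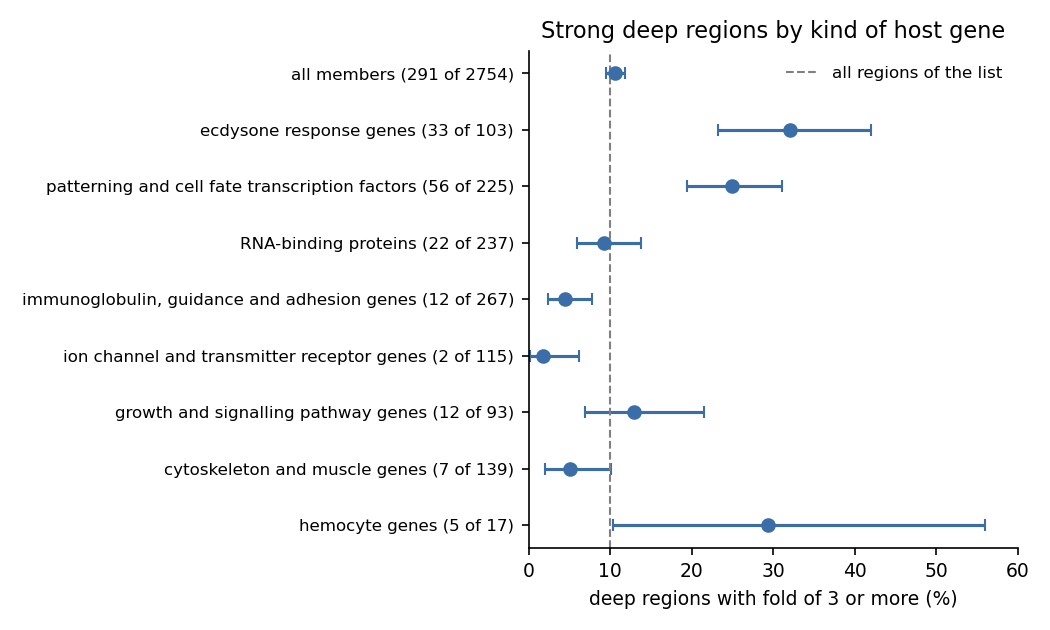
Percentage of deep regions with a fold of 3 or more by list of host genes, with exact binomial 95% intervals as bars. The bars take regions as independent and leave out the spread between genes. The dashed line is the share in the whole peak list, 9.98%. Ecdysone genes at 32.0%, the hemocyte list (ush alone) at 29.4% and patterning genes at 24.9% lie to the right. Channel genes at 1.74% and adhesion genes at 4.49% lie to the left. The lists were drawn up with earlier results of these data known.

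Within the ecdysone list, the deep regions of Eip74EF, listed from the lower coordinate up, had folds of 2.46, 5.89, 2.298, 7.59, 1.74, 3.39, 5.64, 4.50, 9.49, 1.68, 2.16, 5.75, 4.17 and 2.54. Strong ones were thus 8 of 14 and lay along most of the gene. In EcR, the gene of the ecdysone receptor itself, 5 of 17 were strong, at 6.17, 5.53, 4.46, 3.79 and 3.44, and the others ran from 1.54 to 2.58. In ftz-f1, 4 of 9 were strong, the pair named above and 2 more at 3.24 and 3.15.

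tai had 24 deep regions, of which 7 were strong, with folds of 11.6, 7.50, 5.24, 4.29, 3.66, 3.64 and 3.09. Eip75B, which encodes a haem-binding nuclear receptor, had the most of the list with 27, of which 7 were strong, but none exceeded 5.13 and its lowest was 1.60. Eip93F, a helix-turn-helix factor gene of metamorphosis, stood apart, since its 8 deep regions ran from 1.43 to 2.56 and none was strong. Eip63E, a cyclin-dependent kinase gene, had 4, of which 2 were strong, with 5.38 as the highest.

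Among the patterning genes, mam had 6 strong deep regions of 19, at 12.1, 7.06, 5.02, 4.61, 4.01 and 3.62. fru, a BTB zinc finger gene of sex determination, had 8 of 20, with 6.70 as the highest, and psq, another BTB domain factor gene, had 7 of 17, with 6.24 as the highest. bun, of the TSC22 family, had 7 of 14 within a narrow span of 3.40 to 4.41. jing, a zinc finger gene, had the most of this list with 23, of which 4 were strong, and luna, a Krüppel-like factor gene, had 19, of which 2 were.

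The marker genes of the haltere disc that were long enough to have deep regions were hth and Ubx. hth had 18, of which 3 were strong. Ubx, the Hox gene that sets haltere identity, had 5 deep regions, and in coordinate order their folds were 1.70, 1.92, 1.63, 1.68 and 4.12, so that 1 of 5 was strong. Its density of 7.60 per 100 kb was under the median gene.

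In the channel list, all 35 deep regions of nAChRalpha6 fell between 1.54 and 2.48, with a median of 1.92, which is close to the median of all deep regions. Its pileup ran from 75 to 150 reads over a median background of 55.5. Shab, a potassium channel gene, had 16 with 2.95 as the highest, and nAChRalpha5 had 17 with 2.62 as the highest. Snap25 had 24, of which the strong one reached 3.06.

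The adhesion list was led by Ten-m (31, of which 2 were strong), Sema1a (28, 1 strong), dpr21 (23, 1 strong) and ds, the gene of the giant cadherin Dachsous (23, none strong, with 2.45 as the highest). The highest fold of the list was in klg, at 9.66, while its 5 others lay under 3. haf had 2 strong of 6, at 5.80 and 3.04, and the strong share of the list was 3.83% without it, the lowest on leaving out any 1 gene. Of the RNA-binding list, bru3 had 81 deep regions from 1.43 to 3.68 with 2 strong, and Rbp6 had 23, none strong, with 2.65 as the highest. cpo, a couch potato RNA-binding protein gene, had 20 with 3 strong, and heph, a polypyrimidine tract-binding protein gene, had 18 with 2.

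In the growth and signalling list, Ptp61F, a tyrosine phosphatase gene, had 22 deep regions with 1 strong at 6.74. fz, a Wnt receptor and planar polarity gene, had 18 with 2 strong, kuz 17 with 3 strong, and dally, a glypican gene, 13 with 1 strong. Of the cytoskeleton and muscle list, shot, a spectraplakin gene, had 23 with 1 strong, sick 19 with 1 strong, sls, the Drosophila titin gene, 17 with none, and Msp300, a nesprin gene, and Zasp52, a Z-disc protein gene, 16 each, with 3 and none strong.

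**Figure D4:**
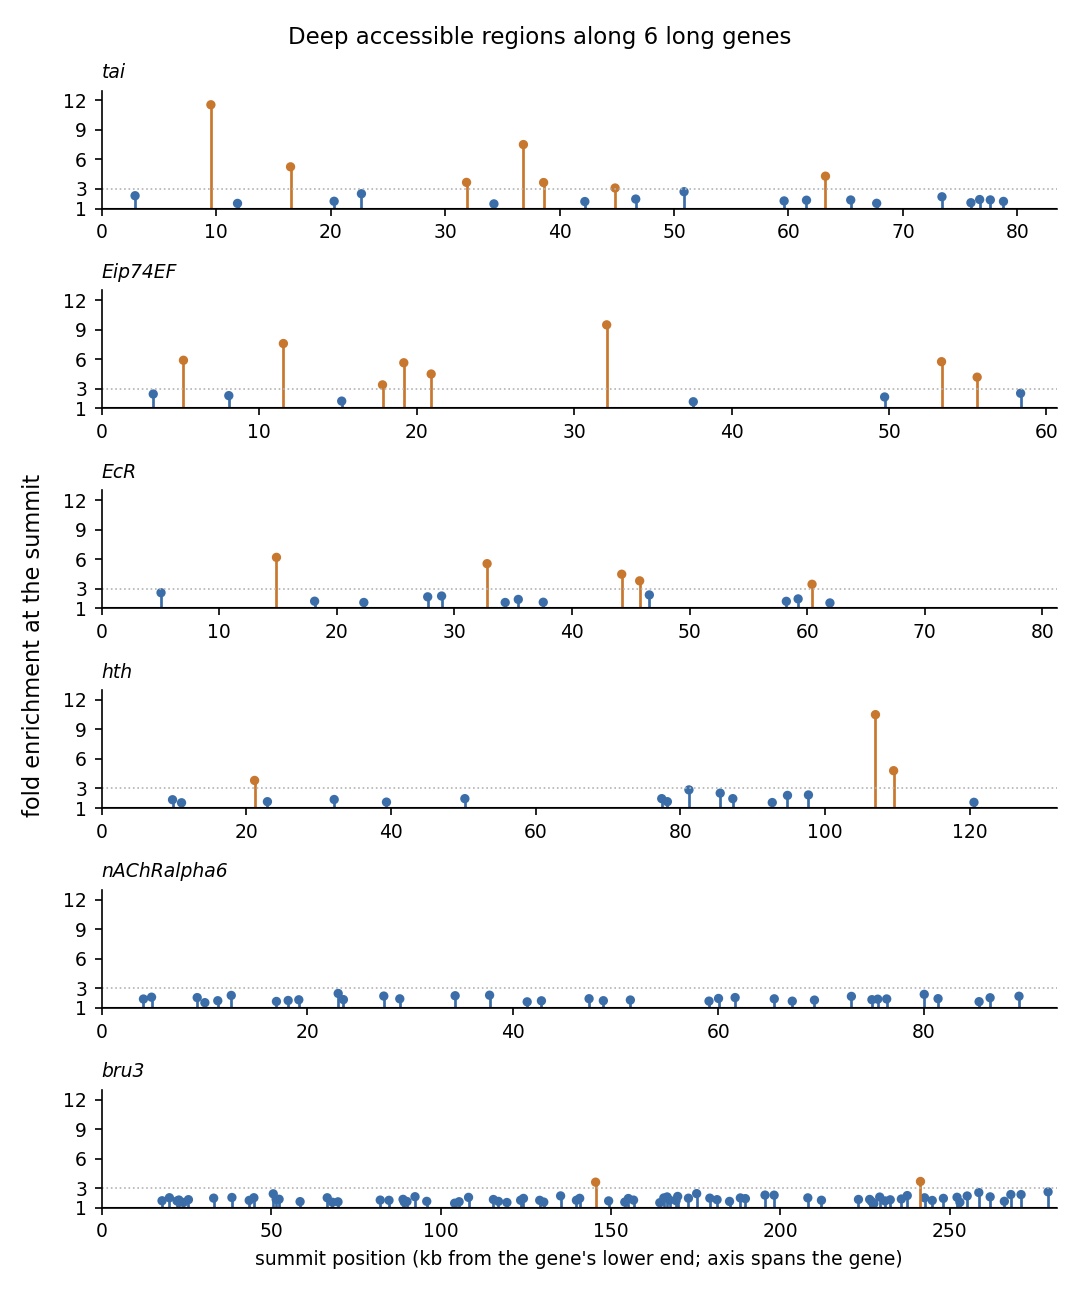
Fold of each deep region at its summit against its distance in kb from the gene's lower coordinate, in 6 long genes, with strong ones (fold of 3 or more, dotted line) in orange; each axis spans its gene. Eip74EF has 8 strong of 14 and tai 7 of 24, whereas nAChRalpha6 has none of 35 and bru3 2 of 81.

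Strong deep regions were unevenly spread over the genes. At least 1 was present in 117 of the 237 genes, while 114 genes had deep regions but no strong one. The 20 genes with 5 or more, chosen after their values were seen, held 132 strong ones, or 45.4% of them, with 17.2% of all deep regions. Myo81F had 17 of its 153, Eip74EF and fru 8 each, Eip75B, bun, psq, sbb and tai 7 each, and CG42238, SNF4Agamma, the gene of the AMPK gamma subunit, mam and px 6 each. EcR, Samuel, Snoo, chinmo, a BTB zinc finger gene, pnt, rdx, shn and ush had 5 each. At the other end, and again chosen by their values, 19 genes with at least 15 deep regions and no strong one held 420, or 15.3%. They were Pzl, nAChRalpha6, dpy, which encodes a giant extracellular matrix protein, Rbp6, ds, Ir41a, CG34353, CG40006, CG45263, Fife, CG17684, nAChRalpha5, sls, twi, CG17839, Shab, Zasp52, sli and dpr12.

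Eligible sequence was poorer in regions than the rest of the arms. It amounted to 19.6 Mb with 14.1 deep regions per 100 kb, against 22.5 regions per 100 kb in the other 89.4 Mb of the 4 arms. The 2 are not alike, since the rule leaves all sequence within 2000 bp of a gene end to the other side. Sequence near the centromeres was set apart on neither side. Deep regions covered 1595 kb, or 8.15% of eligible sequence. The density was 15.99 per 100 kb on 2L, 15.3 on 3L, 14.6 on 2R and 11.9 on 3R, and the strong share was 13.3, 8.56, 9.77 and 11.2% on these arms in the same order.

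Sequence near the centromeres was poorer still. With limits at 2L from 22 Mb, 2R to 5.5 Mb, 3L from 23 Mb and 3R to 4.2 Mb, chosen after the data were seen, 503 deep regions lay near a centromere at 8.50 per 100 kb, and 2251 lay away from it at 16.5. The former were strong in 5.77% (3.89 to 8.18%) and the latter in 11.6% (10.3 to 13.04%). Their local background was at its lowest value in 91.5% and 54.1%, respectively. The pericentric parts of Drosophila chromosomes are rich in repeats, to which short reads cannot be placed uniquely, and the mappable share of this sequence was not analysed here. Of the 29 strong deep regions near a centromere, Myo81F held 17.

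By length of the host gene, the density of regions over 2000 bp from every end fell at each step, from 30.6 per 100 kb in genes under 10 kb to 18.7 in genes of 20 to 50 kb, 17.5 in those of 50 to 75 kb and 9.59 in those of 150 kb or more. The density of strong ones had another course: it was 1.28 in genes under 10 kb, 1.88 at 10 to 20 kb, 1.81 at 20 to 50 kb, 2.12 at 50 to 75 kb, 2.15 at 75 to 100 kb, 1.287 at 100 to 150 kb and 0.581 at 150 kb or more. The strong share was 4.19% in genes under 10 kb, 13.5% at 75 to 100 kb and 6.06% at 150 kb or more. Away from the centromere the longest class had 15.4 regions and 0.796 strong ones per 100 kb, so the density of all regions no longer fell at the last step, from 14.5, but that of strong ones still did, from 1.60.

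**Figure D5:**
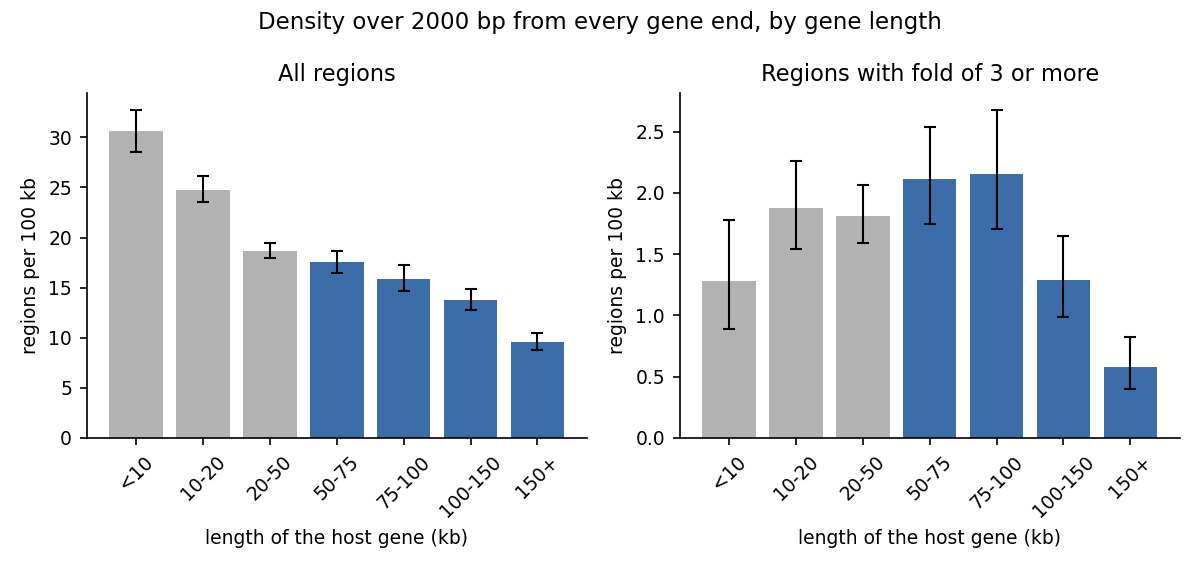
Regions per 100 kb of sequence over 2000 bp from every gene end, by length of the host gene in kb, for all regions (left) and for those with a fold of 3 or more (right); blue bars are long genes, and error bars are 95% Poisson intervals for counting error. All regions go from 30.6 to 9.59 per 100 kb across the classes, and strong ones are highest at 2.15 in genes of 75 to 100 kb.

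The density also differed with the distance to the nearest gene end. The median distance was 11.7 kb and the longest was 254408 bp. The density was 17.8 per 100 kb at 2 to 5 kb from an end, 16.02 at 5 to 10 kb, 14.6 at 10 to 20 kb, 12.2 at 20 to 40 kb and 10.2 beyond 40 kb. Away from the centromere it was 18.7, 16.9, 15.7, 14.2 and 18.1 in these classes, so that the decline ended at 40 kb; the last class had 93 deep regions. The strong share over all deep regions was 8.36, 11.3, 12.6, 10.99 and 8.48% in these classes, with no steady course. Away from the centromere it was 8.63, 11.6, 13.3, 12.1 and 17.2%, the last from 16 of the 93. Measured along the host gene, the strong share was 8.85% within 10% of the gene length from the nearer own end and 14.4% at 40 to 50%, with 7.75, 12 and 10.1% in the steps of 10% between them. At the distance limit itself, the 26 deep regions within 100 bp inside it had a median fold of 1.86, and the 17 regions of long genes within 100 bp outside it had 1.96.

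The strongest deep region of a gene was compared with the strongest region at the gene's own ends. Both kinds were present in 103 genes, and the deep one was higher in 55 of them (53.4%). The median of the highest fold was 3.11 for deep regions and 2.99 for end regions, but these genes had a median of 10 deep regions and 1 end region from which the highest was taken. In tai the highest fold was 11.6 deep and 1.88 at its ends, and in sbb it was 9.39 deep and 10.04 at its ends. Another 128 genes with deep regions, among them mam, hth and Myo81F, had no region within 500 bp of an own end.

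Neighbouring deep regions of a gene were a median of 3.50 kb apart (quartiles 1.61 and 7.97 kb, range 318 bp to 81.9 kb), and 809 of 2523 neighbouring pairs (32.1%) were closer than 2 kb. In 71 pairs both were strong, in 399 only 1 was, and in 2053 neither was. The densest stretches held 11 deep regions within 20 kb, and there were 7 genes with such a stretch: Syp, bru3, Eip75B, bbg, nAChRalpha6, sli and Fife. Syp had 2 strong ones in it, bru3 and Eip75B had 1 each, and the other 4 had none. Close neighbours are not independent, since a stretch of accessible chromatin can be divided into several regions by the peak caller.

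Wide deep regions were few. A width of 2 kb or more was found in 45 (1.63%), against 2.15% of the whole list, and 19 of the 45 were near a centromere. The widest, in Svil at 3L 2402949 to 2407227, was 4279 bp with a fold of 2.45, followed by 3687 bp in CG45263, 3492 bp in CG46244, 3113 bp in DIP-lambda and 2998 bp in mtgo. Of the 45, 4 were strong, while strong deep regions as a whole had a median width of 663 bp and a median pileup of 216 reads.

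A raised local background lowers the fold of a given pileup, and it differed between genes. The 17 deep regions of twi had a median background of 79.8 reads and a median pileup of 131, beside 44.4 and 92 in the other deep regions of 2R, and a median fold of 1.70 beside 1.88. Higher medians of background than the 44.4 reads of most genes were also found in ush (93.7 reads), Syp (76.9), dpy (75.1) and tai (70.8). ush had a median pileup of 189 with a median fold of 1.87. The part of the background in these folds was not tested.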

How the data were processed

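The 2 ATAC-seq libraries of 1 group were represented by 1 deposited peak list of 10 columns, taken as D17 because the series holds no other cells. Builds dm6 and BDGP6 and, among tools, MACS2 2.2.6, Bowtie2 2.3.5.1, bedtools 2.29.2, Trim Galore 0.6.4 and SAMtools 1.13 appear in the submitters' processing notes. Their roles, any shift of reads for the transposase and any pooling of libraries are not given in the sources used here. By column layout and values, the deposited fold is a ratio of summit pileup to local background, the −log10 columns deposited by the authors hold the p-value and q-value of the summit, and the deposited score follows the q-value.

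Summit pileups were recovered as whole numbers from fold, taken as (pileup + 1)/(background + 1), and the Poisson −log10 p, within a relative error of 2.11e-05, and the recovery was checked on simulated data. Total reads per library are unknown. Intervals are exact at the 95% level and cover counting error only, since reads without molecular identifiers are not independent molecules. No error of the background is included. Binomial intervals of shares take regions as independent, though regions of 1 gene are not, and leave out the spread between genes. With 1 group and 1 list, nothing was tested. A region in several long genes was counted for the shortest. The classes of deep regions and the gene lists were chosen with earlier results of these data known. Genes named were the 10 with the most deep regions, the 10 densest with at least 5, the hosts of the 20 highest folds, genes with none, and up to 4 of each list with the most; other names were chosen after their values were seen. Centromere limits, the run without Myo81F, other folds for the lists and the runs without 1 gene were added after seeing the data. Sequences were not used here. Python 3.11.15, numpy 2.4.6, pandas 2.3.3, SciPy 1.17.1 and matplotlib 3.10.9 were used.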

Additional observations from a re-analysis of the deposited data

How the results depend on the processing

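With host genes of 30 kb or more there were 4264 deep regions in 501 genes, 439 of them strong, at 15.2 per 100 kb of eligible sequence. With 100 kb or more there were 1193 in 61 genes, 94 strong, at 11.6 per 100 kb. Over 5000 bp from every gene end the density was 13.3 per 100 kb. The 50% of the list with the higher score held 1315 deep regions, with a median fold of 2.32 and 6.72 per 100 kb. The score follows the q-value of the same summit, so this choice itself raises the fold and lowers the density. Without sequence near the centromeres the density was 16.5 per 100 kb, and without Myo81F it was 14.8. The other values of these 5 summaries moved by less than their counting interval or by under 1.5 times. The median per gene was 9, or 10 when a region counted for every long gene around it. Merging changed nothing, since 0 rows overlapped or touched.

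The strong share of a list minus that of all deep regions changed sign in 2 lists. For RNA-binding protein genes it was -1.28 percentage points at a fold of 3, but 0.66 at a fold of 2, 0.29 at a fold of 4 and 2.25 without bru3. For growth and signalling genes it was 2.34, but -0.44 at a fold of 2 and -0.22 without tkv. The cause was not tested. The other lists kept their sign under these settings, but some differences moved much. For ush, the hemocyte list, it was 18.8 at a fold of 3, 4.68 at a fold of 2 and 0.69 at a fold of 4. For channel genes it went from -8.83 to -4.11 at a fold of 2, and for adhesion genes from -6.07 to -12.4.

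Leaving out a replicate was not possible with 1 list and no values per library, and a planned motif search was not run. No paired analysis was possible because the result comes from no test and there is 1 group. The median summit pileup was 93 reads (62 to 852), which sets the counting intervals on the folds. Regions too weak for the authors' threshold are not in the list, so a gene without a deep region is not shown to be closed.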
